A study of Rattus norvegicus with 4 samples.

Results

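Netrins are laminin-related guidance cues that steer growing axons. Secreted netrins such as Ntn1 act through Dcc, which mediates attraction, and through the Unc5 receptors, which mediate repulsion. The netrin-G proteins Ntng1 and Ntng2 are related in sequence but are held on the axon surface by a GPI anchor, and they bind netrin-G ligands (Lrrc4c for Ntng1, Lrrc4 for Ntng2) on dendrites, where these pairs organize excitatory synapses. Axons from the thalamus grow into the cortex of the rat around birth. The genes were read in newborn rats after prenatal exposure to bisphenol A (BPA), a compound of polycarbonate plastics and epoxy resins that can act on hormone receptors.

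The group was chosen by symbol and comprised 10 genes: the ligands Ntn1, Ntn4, Ntng1 and Ntng2, the netrin-G ligands Lrrc4c and Lrrc4, and the receptors Dcc, Unc5a, Unc5b and Unc5c. All 10 had a row in each library, among 13124 named genes listed in every library. The group was proposed with the BPA values of these libraries known, so the comparison of BPA with control is given for it as a description, without a test.

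Frontal cortex of rat pups (Wistar in the labels, Wistar Furth in the study's methods) at postnatal day 1 was sequenced as polyadenylated RNA, with 1 library for each sex and treatment. The dams received 5000 µg/kg BPA daily from gestation day 1 until parturition, or the vehicle (ethanol in corn oil) by gavage. The methods give several pups from independent litters for each sex and treatment, used for sequencing and for PCR, but not how many of them a library holds. Each difference within a sex compares 1 library with 1. Values are FPKM, fragments scaled for transcript length and library depth, which allows levels to be compared between genes.

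The depth recovered from the single-fragment steps of scarce transcripts was 8946000 to 9247000 fragments per library. Of the cortical excitatory neuron markers, 8 of 9 were listed, with a summed level of 537.11 to 570.2 FPKM in the 4 libraries, Neurod6 being the most abundant (215.55 to 255.27 FPKM). Other cell types differed between the treatments, and their values stand beside Ntng1.

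Ntng1 (NCBI Gene 295382) was the member with the largest difference between treatments. Its level was 2.42 FPKM in the control and 0.91 in the BPA library of males, and 2.18 and 1.09 in those of females. Both BPA libraries lay below both control libraries, and the sexes of a treatment were close to each other. These levels correspond to about 120 and 45 fragments in males and 105 and 52 in females, so Ntng1 was also one of the more scarcely sampled members. The plain ratio of BPA to control was 0.376 in males and 0.5 in females. On the log2 scale this was -1.41 in males (95% counting interval -1.93 to -0.90) and -1 in females (-1.53 to -0.53). Such intervals, from the exact binomial (Clopper-Pearson) method, cover counting error only and no variation between animals. By PCR on several pups, the study found Ntng1 significantly reduced with the sexes combined and, within a sex, in females only.

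Log2 ratios used below are taken after adding 0.5 FPKM to each value, which shrinks those of scarce genes. On that scale Ntng1 was -1.05 in males and -0.75 in females. For scale, the female library differed from the male library by -0.12 among controls and by 0.17 among BPA libraries. Among the 10725 named genes with a mean of at least 1 FPKM, 78 had a lower log2 ratio than Ntng1 in males and 454 in females.

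A log2 ratio of -1 or below was reached by 1 of the 10 members in males, Ntng1, against 0.942% of these 10725 genes (1.15% in either direction). In females it was reached by 0 members, against 1.98% of genes (2.05% in either direction). At 1 or above there were 0 members in either sex, against 0.205% of genes in males and 0.0746% in females. The count rests on the pseudocount: with 1 FPKM added it was 0 in males (Ntng1 at -0.84), with 5 FPKM also 0, and with none it was 1 in each sex, Ntng1. Nothing is read from these counts, since the members were chosen with them known. All 10 members had a mean of at least 1 FPKM, although Ntng1 reached it through the control libraries and stood at 0.91 in BPA male.

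**Figure D1:**
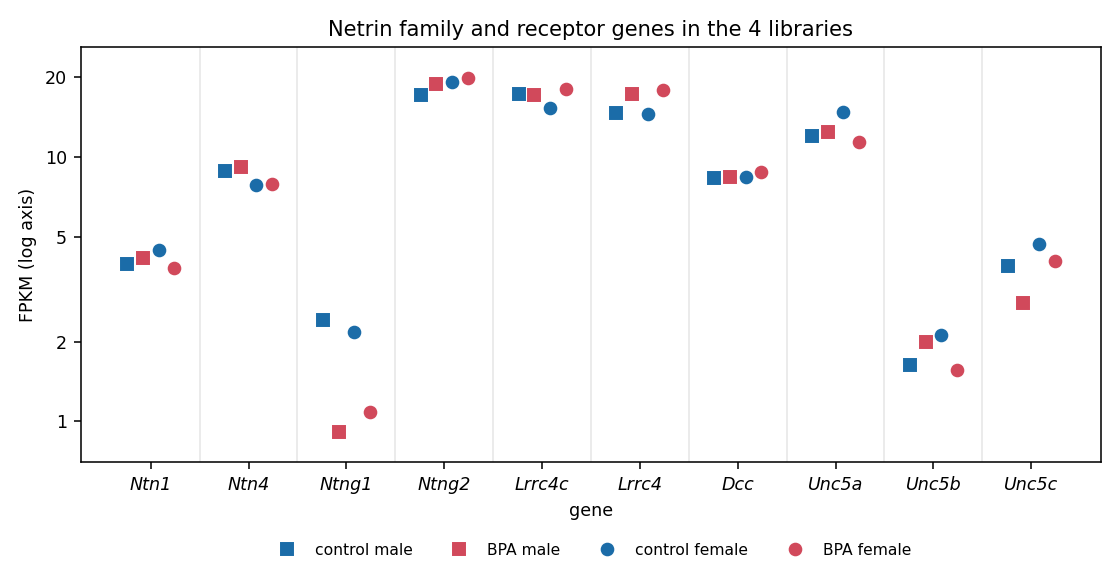
FPKM (log axis) of the 10 genes, 1 point per library, squares for males and circles for females, blue for control and red for BPA. Only Ntng1 (0.91 and 1.09 with BPA, 2.42 and 2.18 without) shows a wide gap between the colors; both red points of Lrrc4 also lie above both blue ones.

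The window upstream of Ntng1 is shown because this is the member whose libraries separated most, and that of its paralog Ntng2 because its level stayed within 17.17 to 19.85 FPKM. Both run over 250 bases before the transcription start on the minus strand, from RefSeq (GRCr8), at chr2:200515032-200515281 for Ntng1 and chr3:32943822-32944071 for Ntng2. Capitals mark CpG dinucleotides.
Ntng1: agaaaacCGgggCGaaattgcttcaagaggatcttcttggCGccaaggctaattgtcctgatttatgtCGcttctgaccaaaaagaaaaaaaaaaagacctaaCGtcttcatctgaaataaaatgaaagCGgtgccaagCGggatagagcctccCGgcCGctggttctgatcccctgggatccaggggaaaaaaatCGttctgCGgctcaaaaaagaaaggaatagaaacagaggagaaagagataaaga
Ntng2: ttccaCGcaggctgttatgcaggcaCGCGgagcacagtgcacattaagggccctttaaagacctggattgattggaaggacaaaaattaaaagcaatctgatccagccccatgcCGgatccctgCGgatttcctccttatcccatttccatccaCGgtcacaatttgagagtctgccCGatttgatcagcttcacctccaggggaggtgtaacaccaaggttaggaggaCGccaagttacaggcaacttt
The Ntng1 window held 11 CpG dinucleotides at 44.8% GC and the Ntng2 window 8 at 50.4%, against medians of 5 and 51.2% over 33469 promoter windows of this length. The motif AGGTCA, which receptors of the estrogen and ROR families can bind, was searched on both strands because the study asked about such factors. It was found in 0 of the 8 members with a window in the table and in 14.1% of all windows. Ntn1 and Unc5c had no window.

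The paralog Ntng2 (NCBI Gene 311836), which marks axons through the same kind of anchor, was far more abundant than Ntng1. Its level was 17.17 FPKM in the control and 18.82 in the BPA library of males, and 19.25 and 19.85 in those of females. BPA and control libraries overlapped, and the log2 ratio was 0.13 in males and 0.04 in females. The FPKM of Ntng2 was 7.1 times that of Ntng1 in control male and 8.83 times in control female. In the BPA libraries the same ratio was 20.7 in males and 18.2 in females. Summed over the pair, netrin-G transcripts were 19.59 and 19.73 FPKM in control and BPA males and 21.43 and 20.94 in control and BPA females, a total that differed less between treatments than the level of Ntng1 did.

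The netrin-G ligands are leucine-rich repeat proteins of the postsynaptic membrane. Lrrc4 (NCBI Gene 641521), the partner of Ntng2, was 14.72 FPKM in the control and 17.29 in the BPA library of males, and 14.52 and 17.97 in those of females. Both BPA libraries lay above both control libraries, an order that 18.9% of the 10725 genes also showed, and the opposite order of Ntng1 was shown by 33.4%. The log2 ratio of Lrrc4 was 0.23 in males and 0.30 in females, while the sexes of a treatment differed by -0.02 and 0.05. Lrrc4c (NCBI Gene 311236), the partner of Ntng1, was 17.28 FPKM in the control and 17.12 in the BPA library of males, and 15.36 and 18.12 in those of females. Its log2 ratio was -0.01 in males and 0.23 in females. The male value turned to 0.03 when the libraries were scaled to the same median. The FPKM of Lrrc4c exceeded that of Ntng1 7.14 times in control male and 7.05 times in control female, and 18.8 and 16.6 times in the BPA libraries. Lrrc4b, the third gene of this small family and not a member of the group, was also higher with BPA, as described with the partner genes.

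Of the secreted netrins, Ntn1 (NCBI Gene 114523), the classical attractant and repellent, was 3.94 FPKM in the control and 4.16 in the BPA library of males, and 4.46 and 3.8 in those of females. The libraries overlapped, with log2 ratios of 0.07 in males and -0.21 in females. Ntn4 (NCBI Gene 299737), a netrin of basement membranes, was 8.89 FPKM in the control and 9.17 in the BPA library of males, and 7.87 and 7.94 in those of females. Here the male and female libraries were set apart (-0.17 among controls and -0.20 with BPA, female over male), and the treatments were not (0.04 in males and 0.01 in females).

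Among the receptors, Dcc (NCBI Gene 25311) was the steadiest, at 8.34 FPKM in the control and 8.38 in the BPA library of males, and 8.42 and 8.79 in those of females. Its log2 ratio was 0.01 in males and 0.06 in females, with plain counting intervals of -0.20 to 0.22 and -0.15 to 0.27. Unc5a (NCBI Gene 60629) was 12.05 FPKM in the control and 12.39 in the BPA library of males, and 14.77 and 11.38 in those of females. The control female library was the high one, and the log2 ratio was 0.04 in males and -0.36 in females. Unc5b (NCBI Gene 60630), which is also a receptor of blood vessels, was the scarcest receptor, at 1.64 FPKM in the control and 2.0 in the BPA library of males, and 2.13 and 1.56 in those of females. It rested on 39 to 53 fragments, and the counting intervals of both sexes contained 0. Unc5c (NCBI Gene 362049) was 3.88 FPKM in the control and 2.81 in the BPA library of males, and 4.7 and 4.03 in those of females. It was lower with BPA within each sex (log2 ratio -0.40 in males and -0.20 in females), but BPA female lay above control male, so the treatments overlapped.

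**Figure D2:**
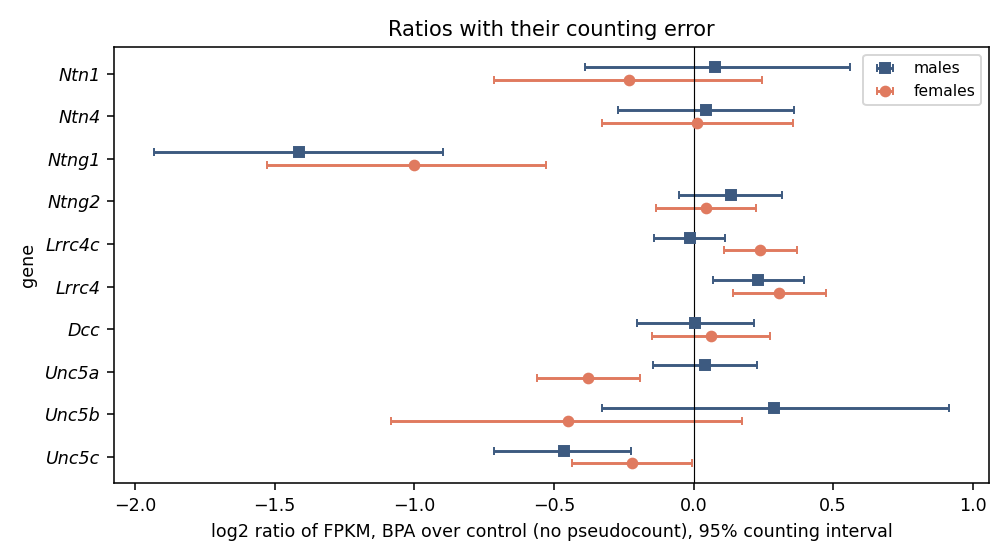
Log2 ratio of FPKM, BPA over control without pseudocount, for each gene in males (squares) and females (circles), with bars for the 95% counting interval. The Ntng1 bars span -1.93 to -0.90 (males) and -1.53 to -0.53 (females), those of Lrrc4 (above) and Unc5c (below) also exclude 0 in both sexes and those of Unc5a and Lrrc4c in females, and those of Dcc, Ntn1, Ntn4, Ntng2 and Unc5b contain 0 in both. The female bar of Unc5c excludes 0 only narrowly (upper end -0.007). Scaling to the same median moved that ratio by more, from -0.20 to -0.14 with 0.5 FPKM added.

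In the control libraries the members fell into steps of level. Ntng2 (17.17 and 19.25 FPKM in males and females) and Lrrc4c (17.28 and 15.36) overlapped at the top, followed by Lrrc4 (14.72 and 14.52) and Unc5a (12.05 and 14.77), which also overlapped. Ntn4 and Dcc had the same mean of 8.38 FPKM, and Unc5c and Ntn1 overlapped at means of 4.29 and 4.2. Ntng1 and Unc5b were lowest, with means of 2.3 and 1.89. Ntng1 lay above Unc5b in both control libraries and below it in both BPA libraries. The median log2 ratio of the 10 members was 0.04 in males and -0.09 in females, and over all named genes of at least 1 FPKM it was -0.04 and -0.05. Without Ntng1, the other 9 members lay between -0.40 and 0.23 in males and between -0.36 and 0.30 in females. BPA and control libraries did not overlap for 2 of the 10, Ntng1 (lower) and Lrrc4 (higher), against 52.3% of the 10725 genes. With the libraries scaled to the same median this held for 5, with Ntng2, Lrrc4c and Dcc added as higher, against 53.5% of genes. The scaling turned the background from 18.9% higher and 33.4% lower to 27.9% higher and 25.6% lower.

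Markers of other cell types differed between the treatments in the direction of Ntng1, which neurons of the thalamus and the olfactory bulb are known to express. Of 6 markers of olfactory bulb projection neurons, 5 were listed, and 4 had both BPA libraries below both controls, while Doc2g had them above (32.5% and 17.1% of the 13124 named genes, since 3 of these markers average under 1 FPKM). Their summed level was 46.43 to 49.57 FPKM in the controls and 10.35 to 13.8 with BPA. Most of it was Cdhr1 (41.1 and 44.48 FPKM in the control and 10.77 and 9.29 in the BPA libraries). Tbx21, a factor of mitral and tufted cells, was 1.74 and 0.85 FPKM in control male and female, was listed at the lowest value of the files (0.01, taken as 0) in BPA male, and was 0.05 in BPA female. Nmb reached -2.43 in females. The markers of thalamic relay neurons, 6 of 7 listed, summed to 20.25 to 21.92 FPKM in controls and 13.24 to 13.73 with BPA, and 5 of the 6 had both BPA libraries below both controls, as 32.5% of the 13124 named genes did. Of these, Slc17a6, a vesicular glutamate transporter and the most abundant, was 12.33 and 12.38 FPKM in controls and 7.62 and 7.12 with BPA. Lef1 differed little in males (1.29 FPKM in the control and 1.27 with BPA) and more in females (1.98 and 0.86). Prkcd differed little in either sex (log2 ratio -0.16 in males and -0.09 in females). The thalamic factor Gbx2 stayed at or below 0.38 FPKM and was at 0 in BPA male. The part of these cells in the level of Ntng1 was not tested, and in bulk tissue fewer cells of a type and less RNA per cell cannot be told apart.

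The methods state that the meninges were removed. All 10 markers of meninges and vessel wall were lower in both BPA libraries than in both controls (33.4% of the 10725 genes), with sums of 469.46 and 613.97 FPKM in control male and female and 214.95 and 146.68 with BPA. Past a log2 ratio of -1 were 7 of them in males (Col1a1, Col1a2, Col3a1, Dcn, Lum, Igf2 and Ogn) and 9 in females, all but Foxc1, and Ptgds was the most abundant. The endothelial sum was 128.46 and 151.76 FPKM in controls and 105.17 and 92.06 with BPA, Cldn5 being the most abundant and Cdh5 reaching -1.06 in females. Unc5b, an endothelial receptor, was lower in BPA female (1.56 against 2.13 FPKM) and higher in BPA male (2.0 against 1.64). Markers of striatal projection neurons went the other way, from 117.93 and 119.48 FPKM in controls to 169.86 and 185.97 with BPA. Of these 12 markers 10 had both BPA libraries above both controls (18.9% of the 10725 genes), Isl1 overlapped, and Rgs9 was slightly lower with BPA (2.33 and 2.32 FPKM in controls, 2.26 and 2.26 with BPA). Rxrg and Ebf1 were past a log2 ratio of 1 in both sexes (1.92 and 1.65, and 1.10 and 1.14), and Ppp1r1b was the most abundant of this list. Among the cortical markers the exception was Slc17a7, the vesicular glutamate transporter of mature cortical neurons, at 51.08 and 56.97 FPKM in controls and 30.0 and 32.17 with BPA. The part of these shifts in the members' values was not tested.

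**Figure D3:**
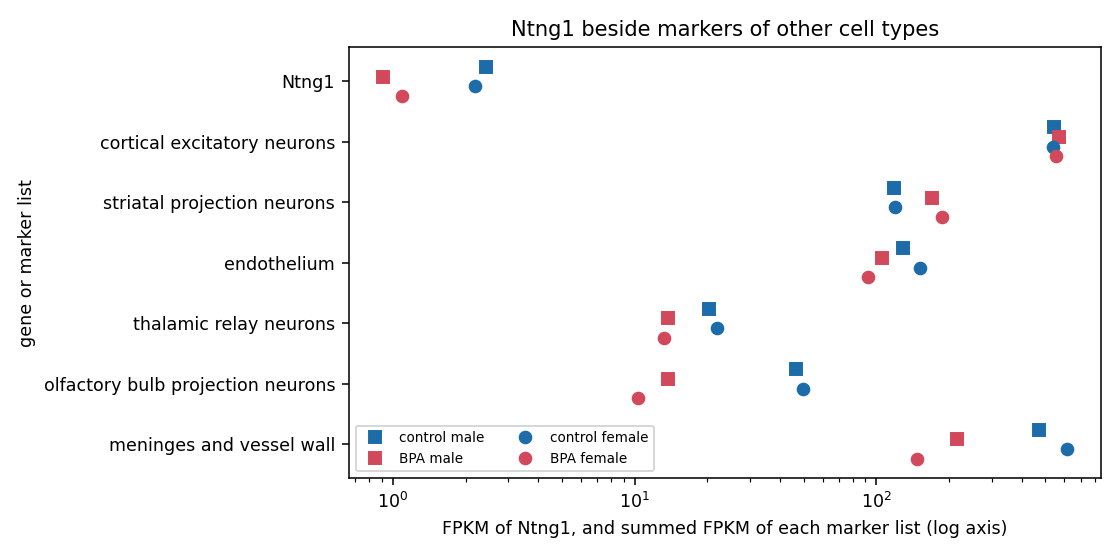
FPKM of Ntng1 and summed FPKM of 6 marker lists (log axis), 1 point per library, squares for males and circles for females, blue for control and red for BPA. Olfactory bulb markers (46.43 and 49.57 down to 13.8 and 10.35) and those of meninges and vessel wall separate in the same direction as Ntng1, striatal markers in the opposite one, and cortical sums stay between 537.11 and 570.2.

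The genes whose pattern over the 4 libraries was nearest to that of Ntng1 were Abhd14b, Slc41a3, Cyp4f6, Tfap2d and Hmox1, by Euclidean distance of the centered log2 values (0.0611 to 0.0932). Abhd14b, a hydrolase, was 3.47 FPKM in the control and 1.52 in the BPA library of males, and 3.3 and 1.69 in those of females. Tfap2d, a transcription factor of the AP-2 family, was 7.4 and 3.41 FPKM in males and 7.37 and 3.85 in females, control before BPA. With 4 libraries, such nearness describes the values alone.

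**Figure D4:**
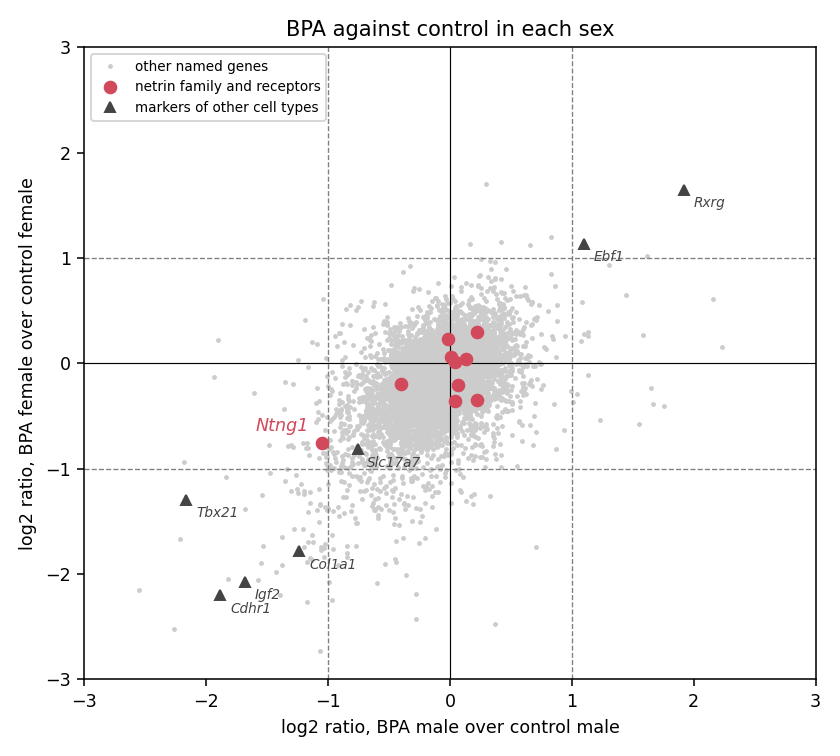
Log2 ratio of BPA to control in males (horizontal) and females (vertical) for 10725 named genes (gray), the 10 netrin family and receptor genes (red) and 7 named markers of other cell types (triangles); dashed lines mark 1 and -1, and 1 gene lies outside the range. Ntng1 stands at -1.05 and -0.75, and the other 9 members lie within the central cloud.

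To place the members in their pathway, 42 partner and signaling genes were read, of which 35 were listed in all 4 libraries. The list was chosen with earlier results of these data known, so the calls below are a description and not independent support. Ntn3, Draxin, Rgmb, Neo1, Ablim1 and Appl1 had no row under their symbols, and Ntn5 had one in females only. Ntn3 stands in the annotation of the row of Tbc1d24, so its level cannot be separated. With the male and female library of a treatment taken as its 2 replicates, limma called 2 of the 35 at a Benjamini-Hochberg adjusted p under 0.05 over all 10725 genes, both higher with BPA, against 0.671% of all genes called higher and 3.8% called lower (4.48% in all). Nck2, an adaptor protein of the Nck family, rose with BPA, at 25.24 and 23.76 FPKM in control male and female against 32.08 and 33.57 (limma log2 difference 0.41, standard error 0.0776, adjusted p = 0.0171). Lrrc4b, the netrin-G ligand family member that binds the receptor phosphatase LAR, also rose, at 90.12 and 89.02 FPKM in the controls against 108.78 and 107.79 (0.27, standard error 0.061, adjusted p = 0.0364 from limma). Without control female or without BPA female 0 of the 35 were called, and Lrrc4b was not called with any of the 4 libraries left out, though such a fit leaves 1 library in an arm, takes the spread from the other arm and says little about stability. With genes of low level kept in the fit 0 of the 35 were called, and with sex as a replicate block 5 were (Dock1, Flrt3, Lrrc4b, Nck2 and Tubb3), where 9.36% of all genes were called.

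By group, 0 of 5 listed partners outside the cell, 1 of 7 other receptors and membrane partners, and 1 of 23 signaling genes inside the cell passed. Cbln4, a secreted synaptic organizer that binds Dcc, was 1.37 FPKM in the control and 0.65 in the BPA library of males, and 2.05 and 0.74 in those of females. This was the only gene of the list past the fold, at -1.04 in females, where 1.98% of the 10725 genes were at or below -1. The adjusted p of Cbln4 from limma was 0.1. Dock1, an activator of Rac1 downstream of Dcc, was 5.91 and 3.92 FPKM in males and 5.66 and 3.69 in females, control before BPA (limma log2 difference -0.55, adjusted p = 0.0635). Cntn4, an axonal adhesion protein, gave -0.48 (adjusted p = 0.118) and Tubb3, the neuronal tubulin that binds Dcc, gave 0.23 (adjusted p = 0.161) in the same limma fit. The median log2 ratio of the 35 genes was -0.01 in males and 0.04 in females.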

How the data were processed

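RNA of 4 frontal cortex libraries was sequenced by the authors on an Illumina HiSeq instrument, mapped to Rnor_6.0 (rn6) with Bowtie 2 and quantified with RSEM. The submitters' processing notes also name HISAT, and versions are not given in the sources used here. Each deposited file gives FPKM, which the authors scaled for transcript length and library size, to 2 decimals and with 0.01 in place of 0.

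Rows were grouped by symbol. Of 3415 assembled transcripts without one, 378 were added to a gene by protein record, 0 of them to a member. Values of 0.01 were taken as 0. Depth was recovered from 1381 to 1475 scarce transcripts per library, as the total that best turned FPKM and length (less 60 bases) into whole fragments. Of these transcripts, 89.6 to 91.6% fell within 0.1 of a whole fragment. The recovery was tested on simulated data.

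Partner genes were compared in R 4.3.3 by limma 3.58.1 with a trend. The fit took log2(FPKM + 0.5) for genes averaging 1 FPKM or more, with treatment as the only term (2 residual degrees of freedom) and Benjamini-Hochberg adjustment. In 1 simulation with a spread of 0.07 (log2, set by hand and the same for all genes) and 200 of 10707 genes changed by 1 on the log2 scale, this fit called 192 of them and 5 others. In the data the limma standard error was 0.061 for Lrrc4b and 0.265 for Cbln4. The simulation therefore does not give the recovery for genes of wider spread or smaller change. The sexes stood in for replicates, and p-values measure only the spread between these libraries. Python 3.11.15, numpy 2.4.6, pandas 2.3.3, scipy 1.17.1 and matplotlib 3.10.9 were used.

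The members, the partner and marker lists and the tests were chosen with earlier results of these data known. The members were named in full. Of the partner genes, those past the fold or called by limma and the 3 highest and 3 lowest mean log2 ratios were named. Of the markers, those past the fold, the most abundant and those at 0 were named, and Slc17a7, Doc2g, Lef1, Prkcd, Isl1 and Rgs9 were added after their values were seen. The 5 genes nearest to Ntng1 were named. The alternatives were other pseudocounts, scaling to a common median, a filter on low values, sex as a term and leaving out each library. Coordinates in the genome build of the files are not used here.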

Additional observations from a re-analysis of the deposited data

Results flagged for a closer look

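For 4 members the log2 ratio of BPA to control had opposite signs in the sexes, with 1 library per arm, so the difference between the sexes was not tested. As male minus female log2 ratio it was 0.58 for Unc5b, 0.40 for Unc5a, 0.28 for Ntn1 and -0.24 for Lrrc4c. With counting error alone and no pseudocount, the 95% interval of this difference was 0.16 to 0.67 for Unc5a and -0.43 to -0.07 for Lrrc4c, and it contained 0 for Unc5b (-0.10 to 1.57) and Ntn1 (-0.34 to 0.96). The signs of Lrrc4c were no longer opposite when the libraries were scaled to the same median (0.03 in males and 0.30 in females).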

How the results depend on the processing

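Over the 5 alternatives that can change them, 98 of 100 log2 ratios of the members moved by less than their counting error. The other 2 were those of Ntng1 with a pseudocount of 5, -0.33 in males and -0.24 in females. The number of members past the fold in males, 1 with a pseudocount of 0.5, was 0 with a pseudocount of 1 and 0 with 5, and in females it was 1 in place of 0 without a pseudocount, an alternative chosen after seeing the data. Members whose treatments did not overlap numbered 5 in place of 2 after scaling to the same median. Of the partner genes, limma called 0 of 35 without a filter on low values (7 with an unadjusted p under 0.05, 20%, against 18.5% of all genes), where 0 of all 13124 genes were called, and 5 with sex as a replicate block (Dock1, Flrt3, Lrrc4b, Nck2 and Tubb3), where 9.36% of all genes were called in place of 4.48%. With each library left out, the number was 0 to 2, beside 2.24 to 4.26% of all genes. In these fits the lone library is assumed to vary like the other arm. The causes of these shifts were not tested. Adding assembled transcripts matched 0 members and so could change nothing. The depth limits Ntng1, Unc5b and Ntn1 most, with 39 to 120 fragments per library.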
